A study of Homo sapiens with 48 samples.

Results

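Kelly is a human neuroblastoma cell line with amplified MYCN and is labelled wild type. The data described here are its 8 libraries taken after 6 h of actinomycin D at 10 µg/ml, out of 48 libraries in the series, which covers 2 neuroblastoma lines. Cells had first been kept for 3 or 6 days in 8 µM STM2457 or in its solvent DMSO, with 2 libraries for each treatment and duration, and all 8 libraries then received the same actinomycin D. Actinomycin D blocks transcription, so these libraries hold the transcripts that were left 6 h after synthesis stopped. The 4 STM2457 libraries were compared with the 4 DMSO libraries with duration as a covariate, and no library from 0 h entered that comparison.

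STM2457 inhibits the catalytic activity of METTL3, the enzyme that with METTL14 writes N6-methyladenosine (m6A) into mRNA. The mark is placed mostly at adenosines within short sequences such as GGACT. In textbook accounts it lies mainly in long internal exons and near stop codons, because exon junction complexes keep the writer away from short exons, and it is read by YTH proteins that can direct a transcript to decay. No m6A was measured in these libraries, and they give the share of each mRNA at 1 time after the transcription block, not a half-life.

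Between 15133325 and 18138407 fragments were counted in genes in each of the 8 libraries, against 11139550 to 21942238 in the whole series. MYCN, whose mRNA is short-lived, lay at 4804 to 6255 CPM (a count relative to the library's total, here with no further scaling) in the Kelly DMSO libraries at 0 h and at 403 to 648 in those at 6 h. All other CPM are TMM-scaled. The line's adrenergic markers were present at 6 h in all 8 libraries (DBH at 1515 CPM or more, HAND2 at 535 CPM or more), and the Schwann cell markers CDH19, SOX10 and S100B reached at most 0.891, 3.16 and 1.31 CPM. The summed level of 19 mesenchymal and Schwann cell genes was 151 to 297 CPM with DMSO and 198 to 308 with STM2457. The DMSO libraries of 6 days stood apart from the other 6 on the leading principal component, which held 29.7% of the variance (scores of 31.0 and 35.3 against -19.1 to -4.35). They also had the highest share of spiked-in ERCC RNA (0.650 to 0.671%, against 0.449 to 0.50% in the others). A call over both durations need not hold at each, so genes that missed the test at 1 duration in the fit with 4 groups are named with that adjusted p. The labels do not say whether the 2 libraries of a group came from separate cultures, so p-values measure the spread between these libraries, which may be technical.

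Transcripts left after 6 h differed between the treatments in both directions. Of 15562 genes tested, 403 (2.59%) were higher with STM2457 and 427 (2.74%) were lower at a Benjamini-Hochberg adjusted p under 0.05 in the quasi-likelihood test of edgeR. The 2 directions together made up 5.33% of the genes. The median change of a called gene was 0.53 on the log2 scale, the median over all tested genes was 0.03, and 48 of the higher and 40 of the lower genes changed by more than 2-fold. CPM did not overlap between the 4 STM2457 and 4 DMSO libraries for 1411 genes (9.07%), among them 299 of the higher and 330 of the lower genes. Called genes were abundant. Their median mean level was 67.0 CPM for higher and 126 CPM for lower genes, against 14.7 for all tested genes. The balance of the directions rested on the scaling. Higher genes were 48.6% of those called after TMM scaling, 67.5% with library size alone, 71.7% with scaling to long-lived transcripts, 37.5% after removal of a trend on exon length and 93.7% with ERCC scaling, which called 713 higher and 48 lower genes and moved the median of all genes to 0.26. Single genes were checked under ERCC scaling only where they were named by the rule given with the processing. Of these, CNTN1, NPM1, SREBF2, RRM2B, CDC20, COL1A1, COL6A2, GAPDH, PGK1, ALDOA and GNAS were lower after TMM scaling but not called with ERCC scaling. Other such genes are stated where they are described. The lower genes EPRS1, GARS1, NARS1, SLC3A2, SLC18A2, GPI, LDHA, SYP and PLXND1 were not checked in this way. The ERCC share itself differed between treatments in opposite directions at the 2 durations, without overlap in either. It was 0.479 and 0.483% with STM2457 against 0.452 and 0.449% with DMSO at 3 days, and 0.50 and 0.487% against 0.671 and 0.650% at 6 days. All changes below are relative to the TMM scale, on which a lower value is a smaller share of the surviving mRNA, and in bulk RNA fewer cells with a transcript and less of it per cell cannot be told apart.

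**Figure D1:**
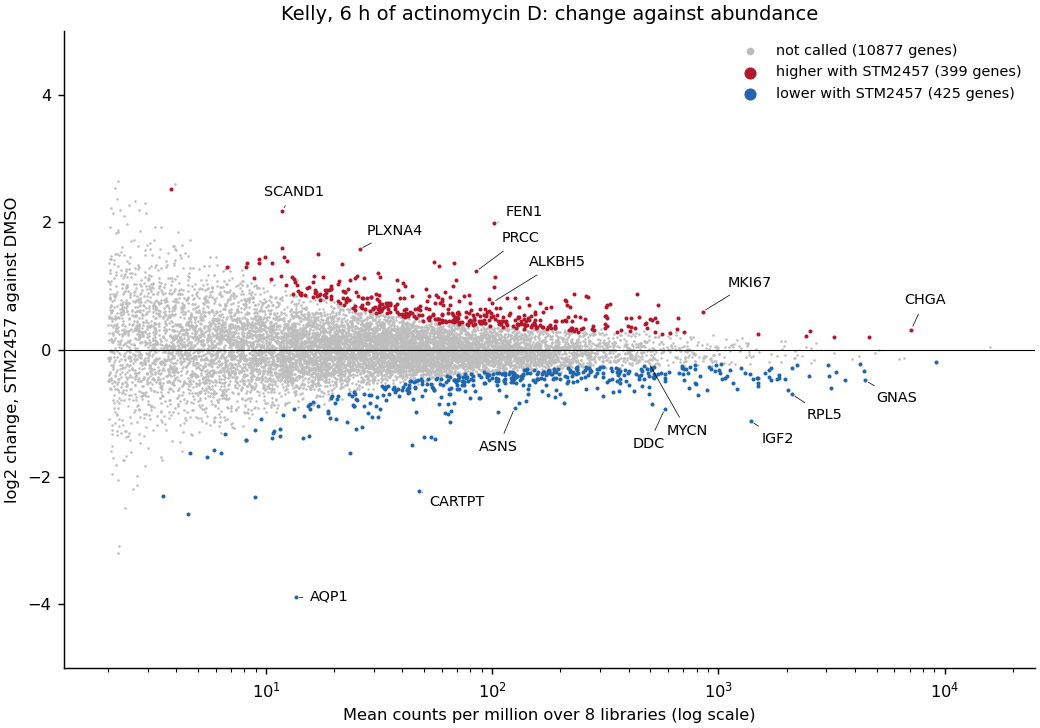
Change with STM2457 at 6 h of actinomycin D in Kelly against abundance. Each point is 1 of 11701 genes averaging 2 CPM or more, with mean CPM on a log axis and the log2 change on the vertical axis; 399 genes called higher and 425 called lower are coloured, and they spread over both directions at all but the lowest levels.

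The transcripts on the 2 sides differed in how their coding sequence is laid out in exons. Reference transcripts (MANE Select, GENCODE 44) were found for 98.5% of the higher, 99.8% of the lower and 96.9% of all tested genes. Among the higher genes, 157 of 397 (39.5%) have more than 50% of their coding bases in 1 exon, compared with 25 of 426 lower genes (5.87%) and 23.4% of all tested genes. A single coding exon was found in 49 higher genes (12.3%), 5 lower genes (1.17%) and 6.45% of all genes. The longest coding exon had a median of 539 bases in higher, 201 in lower and 300 in all genes, while the whole coding sequence differed less, with medians of 1530, 1184 and 1446 bases.

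Low-count genes are called less readily, so the shares were also taken in genes averaging 50 CPM or more. There, 32.6% of 239 higher, 5.59% of 322 lower and 10.3% of all 3942 genes have over 50% of their coding bases in 1 exon. Read the other way, 3.03% of the 2111 genes with at most 20% of their coding sequence in the longest exon were called higher and 7.91% lower. In the 392 genes with 40 to 60% in the longest exon the shares were 12% and 8.42%. In the 61 genes with a single coding exon they were 32.8% and 4.92%, which is 20 and 3 genes. The median change ran from -0.07 in the most divided coding sequences to 0.20 in the undivided ones. NGP, the other neuroblastoma line, was measured in separate libraries under the same design. Of the same 61 genes, chosen by their level in Kelly, 41.0% were higher and 1.64% lower in NGP.

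Without ribosomal protein genes, 5.99% of the remaining 367 lower genes have over 50% in 1 exon. Across 13 settings of scaling, filter, model and duration, the share lay between 26.8 and 50.3% for higher genes and between 4.46 and 8.77% for lower genes. The lowest share of higher genes came from the 6-day libraries alone. In the joint fit the share was 49.6% at 3 days and 26.7% at 6 days, against 23.4% of all tested genes. A single coding exon was found in 16.7% of higher genes at 3 days and 5.93% at 6 days, against 6.45% of all tested genes. Against all tested genes, the excess among higher genes was thus mainly in the 3-day calls. These shares by duration were not taken in the genes averaging 50 CPM or more. In those abundant genes the median change rose with this layout at both durations. From the most divided coding sequences to single coding exons, it ran from -0.11 to 0.29 at 3 days and from -0.02 to 0.24 at 6 days. These shares describe lists of genes and carry no test, and other properties that vary with exon layout were not held fixed.

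**Figure D2:**
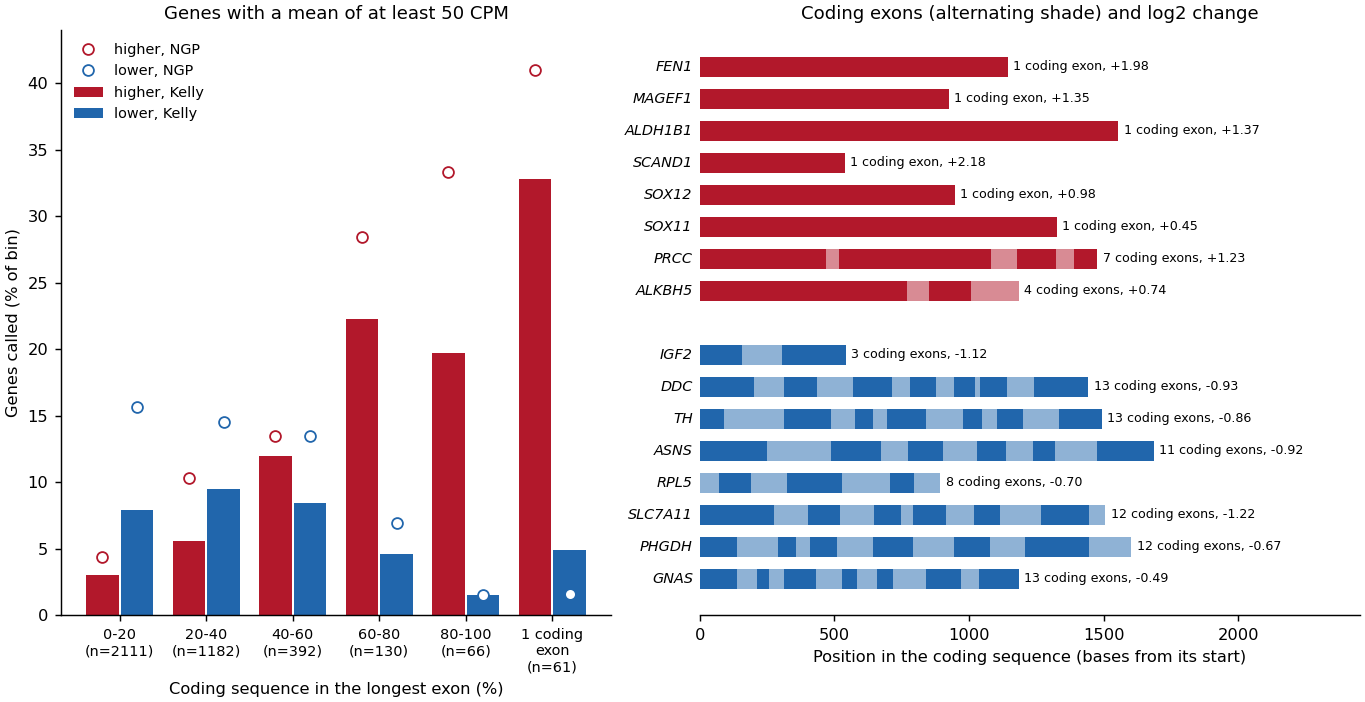
Left, percentage of genes called higher and lower at 6 h by the share of coding bases in the longest exon. Bars are Kelly and open circles NGP, with gene numbers under each bin. Both lines are shown for the same genes, those averaging 50 CPM or more over the 8 Kelly libraries. The share called higher in Kelly rises from 3.03% in the lowest bin to 32.8% in single-exon genes. Right, coding exons to scale in bases for 8 higher and 8 lower genes, chosen after their values were seen; 6 of the 8 higher genes are drawn as 1 block.

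Several of the large increases were in genes of this kind. FEN1, the flap endonuclease that trims Okazaki fragments, has its whole coding sequence in 1 exon (gene at chr11:61792911-61797238, GRCh38). Its level with DMSO was 55.4 and 73.0 CPM at 3 days and 24.1 and 24.9 at 6 days, and with STM2457 171 and 198, then 139.6 and 131. Each STM2457 library was above every DMSO library, and the difference was 1.98 ± 0.15 on the log2 scale (SE; adjusted p = 1.18e-09), with 1.52 at 3 days and 2.46 at 6 days. MAGEF1, an intronless MAGE family gene (chr3:184710364-184712064), read 53.4 and 43.7 CPM at 3 days and 31.0 and 27.4 at 6 days with DMSO, against 95.6 and 110.0, then 93.6 and 87.5 with STM2457. Those groups did not overlap either, and the change was 1.35 ± 0.13 (adjusted p = 1.25e-07). ALDH1B1, a mitochondrial aldehyde dehydrogenase coded in 1 exon, rose by 1.37 ± 0.15, and SCAND1, also coded in 1 exon, by 2.18 ± 0.30 from a mean of 4.26 CPM. In SCAND1, 39.9% of exon bases are shared with CNBD2, so its count is uncertain.

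Other strongly raised genes have several coding exons. PRCC, a proline-rich nuclear protein known from a renal carcinoma fusion, has 7 of them, with 38.4% of its coding bases in the longest. It was at 60.0, 60.1, 45.0 and 36.6 CPM with DMSO and 148, 145, 89.7 and 94.2 with STM2457 in the order 3 days then 6 days, without overlap and with a change of 1.23 ± 0.11 (adjusted p = 3.75e-08). GEMIN6, of the SMN complex that assembles spliceosomal snRNPs, has 74.6% of its coding bases in 1 exon and rose by 1.39 ± 0.29. CHST11, a chondroitin sulfotransferase with 80.7% in 1 exon, rose by 1.34 ± 0.21. UQCRFS1, the Rieske subunit of respiratory complex III with 74.1%, rose by 1.12 ± 0.18.

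Not every large increase had that layout. PLXNA4, a semaphorin receptor with 31 coding exons, was at 17.8, 20.2, 2.72 and 13.6 CPM with DMSO and 39.5, 51.6, 27.9 and 33.7 with STM2457, and rose by 1.58 ± 0.28. CUX2, a homeobox factor with 22 coding exons, rose by 1.31 ± 0.14, and SLC6A17, a neuronal vesicle amino acid transporter with 11, by 1.5 ± 0.27. The remaining genes among the 12 largest increases were BYSL, a small ribosomal subunit assembly factor (1.6 ± 0.32), ARHGAP29, a GTPase-activating protein (1.45 ± 0.30), and FBLL1, a fibrillarin-like gene coded in 1 exon (1.36 ± 0.35). SLC6A17, ARHGAP29 and GEMIN6 did not pass the test at 3 days (adjusted p of 0.109, 0.0897 and 0.241), while PLXNA4 did (0.0251). BYSL and FBLL1 passed at 3 days (2.13 and 1.6 on the log2 scale) and not at 6 days (1.07 and 1.13, adjusted p of 0.131 and 0.179).

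Stretches of coding sequence around GGACT are printed because this is the motif in which METTL3 writes most often. For each gene the copy nearest the end of the coding sequence was taken, with 25 bases on each side, on the coding strand of GRCh38 with GENCODE 44 transcripts; the capitals mark GGACT. The genes were chosen after their values were seen, as 2 pairs of relatives and 3 strongly changed genes. SOX11 (chr2:5693977-5694031, plus strand, exon 1), SOX12 (chr20:326802-326856, plus strand, exon 1), PLXNA4 (chr7:132140635-132140689, minus strand, exon 30), PLXNA1 (chr3:127032509-127032563, plus strand, exon 30), FEN1 (chr11:61795876-61795930, plus strand, exon 2), ALKBH5 (chr17:18208314-18208368, plus strand, exon 4) and PRCC (chr1:156768065-156768119, plus strand, exon 1) gave these windows.
SOX11: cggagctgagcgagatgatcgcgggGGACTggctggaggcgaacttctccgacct
SOX12: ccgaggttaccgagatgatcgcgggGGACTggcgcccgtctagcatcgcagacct
PLXNA4: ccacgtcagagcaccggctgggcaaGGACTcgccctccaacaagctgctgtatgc
PLXNA1: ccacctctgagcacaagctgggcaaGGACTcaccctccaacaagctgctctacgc
FEN1: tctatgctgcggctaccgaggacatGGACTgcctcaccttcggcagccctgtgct
ALKBH5: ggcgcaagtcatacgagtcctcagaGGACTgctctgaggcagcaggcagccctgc
PRCC: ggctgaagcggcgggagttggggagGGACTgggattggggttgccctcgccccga

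In the SOX pair the motif lies 46 bases before the end of the coding sequence in each gene, and the windows are identical at 41 of 55 positions. Both genes rose. In the plexin pair it lies 313 bases before the end in each, with 48 of 55 positions identical, and the genes moved in opposite directions: PLXNA1, also a semaphorin receptor with 31 coding exons, fell by 0.41 ± 0.07 (adjusted p = 0.000415) from 545, 555, 572 and 585 CPM with DMSO to 414, 438, 421 and 421 with STM2457. Under ERCC scaling PLXNA1 did not pass the test. MAGEF1 and SCAND1 rose without a GGACT in the coding sequence, and each has 1 copy elsewhere in its transcript. CHST11, UQCRFS1, NEFL and JUND also rose without one in the coding sequence. FBLL1 rose without a copy anywhere in its transcript, and CARTPT, CYGB and CYBA, which fell, have none in theirs. Over all genes, GGACT on the coding strand was found in the last 300 coding bases of 30.6% of higher, 23.4% of lower and 29.1% of tested genes. A match is a run of letters, and whether the adenosine carried the mark in these cells was not measured.

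**Figure D3:**
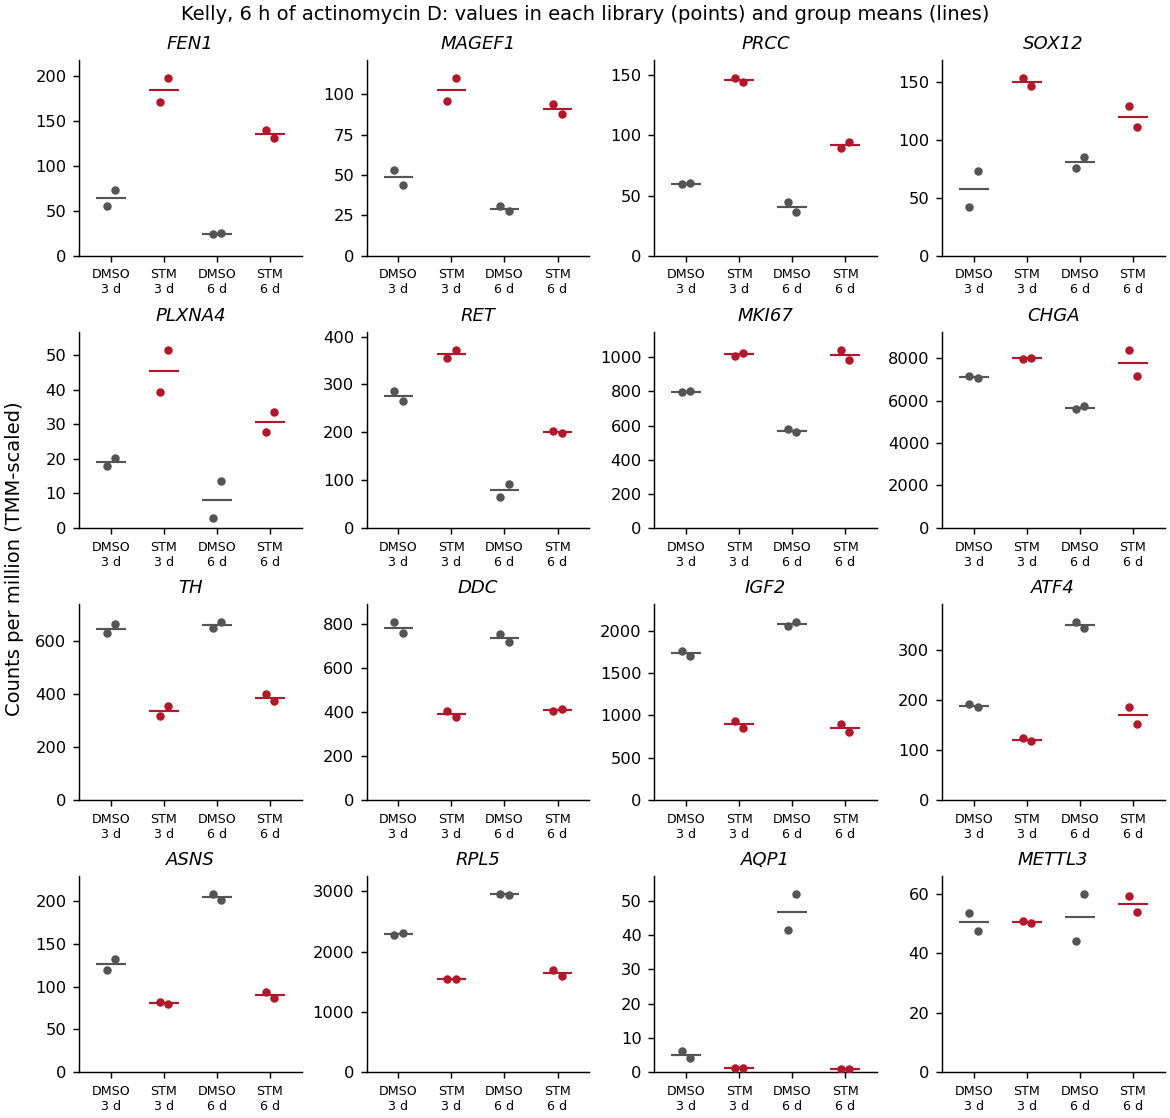
CPM at 6 h of actinomycin D in each of the 8 Kelly libraries for 16 genes, on linear axes from 0. Points are libraries, short lines are means of the 2 libraries of a treatment and duration, and STM stands for STM2457; FEN1, MAGEF1, PRCC and SOX12 lie higher with the inhibitor at both durations, TH, DDC, IGF2 and RPL5 lower, and METTL3 overlaps.

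CARTPT and AQP1 had the largest decreases. CARTPT, a neuropeptide precursor, was at 58.2, 51.5, 101 and 102 CPM with DMSO and 13.0, 13.3, 18.0 and 21.0 with STM2457, and fell by 2.22 ± 0.15 (adjusted p = 6.23e-11). AQP1, a water channel, was at 6.15 and 3.96 CPM with DMSO at 3 days and 41.6 and 52.1 at 6 days, and at 1.25, 1.19, 0.891 and 0.952 with STM2457. Its change was -3.89 ± 0.50 pooled, -2.04 at 3 days and -5.66 at 6 days, and a fit to the 3-day libraries alone did not call it (adjusted p = 0.203). Of its exon bases, 26.5% are shared with another annotated gene. IGF2, the fetal growth factor, lay outside the 12 largest decreases. It was at 1761, 1706, 2052 and 2104 CPM with DMSO against 933, 853, 893 and 805, a fall without overlap of 1.12 ± 0.07 (adjusted p = 2.85e-11). Another annotated gene, AC132217.2, covers 70.7% of the exon bases of IGF2, so the fragments of these genes cannot be fully separated.

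The other genes among the 12 largest decreases were CYGB, a haem protein (-1.49 ± 0.16), RFK, riboflavin kinase (-1.41 ± 0.15), SLC2A1, the glucose transporter GLUT1 (-1.38 ± 0.18), and ALDH1L2, a mitochondrial folate enzyme (-1.37 ± 0.17). CYBA, a subunit of NADPH oxidase, changed by -1.25 ± 0.21 and SFXN3, a mitochondrial serine carrier, by -1.39 ± 0.27. SLC7A11 and SLC18A1 belong to the groups below. SMARCD3, a chromatin remodelling subunit (-1.28 ± 0.33), lost its call when STM2457 6 days replicate 1, STM2457 6 days replicate 2 or DMSO 6 days replicate 1 was left out (-1.03, -1.08 and -1.11; adjusted p of 0.0634, 0.0508 and 0.0513). PRICKLE2, a planar polarity gene (-1.40 ± 0.32), lost it without DMSO 6 days replicate 2 (-1.07, adjusted p = 0.0874). SMARCD3, SFXN3 and PRICKLE2 did not pass at 3 days (-0.45, -0.86 and -1.03; adjusted p of 0.652, 0.205 and 0.216).

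Of 11 genes of catecholamine synthesis and storage tested, 5 fell and 2 rose. The list's median was -0.24, and it ran from -0.40 without STM2457 3 days replicate 2 to -0.06 without STM2457 6 days replicate 2 and was -0.01 under ERCC scaling. DDC, which makes dopamine from L-DOPA, was at 809, 757, 755 and 718 CPM with DMSO and 403, 375, 405 and 414 with STM2457. No STM2457 library reached a DMSO library, and the fall was 0.93 ± 0.07 (adjusted p = 2.18e-09). TH, the rate-limiting enzyme upstream of it, was at 629, 665, 649 and 672 CPM against 316, 353, 400.3 and 372, and fell by 0.86 ± 0.08 (adjusted p = 1.87e-08). DBH, which makes noradrenaline, changed by -0.40 ± 0.06 and was not called under ERCC scaling. The vesicular monoamine transporters SLC18A1 and SLC18A2 fell by 1.14 ± 0.15 and 0.77 ± 0.12. The degrading enzyme MAOA rose by 0.50 ± 0.08. The noradrenaline uptake transporter SLC6A2 rose by 0.54 ± 0.14 over both durations, with 0.08 at 3 days (adjusted p = 0.853) and 1.01 at 6 days (adjusted p = 1e-06).

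Of 30 genes of amino acid supply tested, 13 fell and none rose, with a median of -0.44. ATF4, the transcription factor that drives this programme, was at 191 and 185 CPM with DMSO at 3 days and 356 and 343 at 6 days, against 124, 117, 185 and 152. The treatments overlapped only across durations, and the change was -0.85 ± 0.10 (adjusted p = 1.92e-06). ATF4 has 78.6% of its coding bases in 1 exon and so fell against the layout common among higher genes. ASNS, asparagine synthetase, was at 119.9, 132, 209 and 202 CPM against 82.2, 79.4, 93.2 and 86.4 and fell by 0.92 ± 0.11 (adjusted p = 3.64e-06). The serine synthesis enzyme PHGDH changed by -0.67 ± 0.08, the cystine importer SLC7A11 by -1.22 ± 0.19 and its partner subunit SLC3A2 by -0.70 ± 0.13. The aminoacyl-tRNA synthetases EPRS1, GARS1 and NARS1 changed by -0.42, -0.47 and -0.30, of which NARS1 did not pass at 3 days (adjusted p = 0.0692). The PHGDH call did not hold under ERCC scaling, where the list's median was -0.21.

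Cytosolic ribosomal proteins gave the most uniform fall: 29 of 31 listed genes were called lower and none higher, with a median of -0.45 and called values from -0.70 to -0.23. RPL5, which carries 5S RNA into the large subunit, was at 2269, 2308, 2956 and 2940.0 CPM with DMSO and 1552, 1548, 1694 and 1601 with STM2457. Each STM2457 library was below each DMSO library, and the fall was 0.70 ± 0.06 (adjusted p = 1.1e-08). RPL7A and RPL11 of the same subunit fell by 0.63 ± 0.06 and 0.62 ± 0.06. Taken over all 77 ribosomal protein genes found by name, 59 fell, and RPL41 rose by 0.34 ± 0.09 (0.27 at 6 days, adjusted p = 0.131). Processed pseudogenes of this family can split reads, which makes single values uncertain. RPL11 was not called under ERCC scaling, where the list's median was -0.23. Of 28 nuclear genes of mitochondrial oxidative phosphorylation, 12 were lower and 1 higher (UQCRFS1), with a median of -0.33, which was -0.10 under ERCC scaling. ATP5F1A of ATP synthase changed by -0.43 ± 0.07 and was not called under ERCC scaling. Among long-lived transcripts, the glycolytic genes GAPDH, PGK1, ALDOA, GPI and LDHA were lower (-0.33 to -0.60) and the cytoskeletal ACTB and TUBB higher (0.20 and 0.22). GPI and LDHA did not pass at 6 days (-0.20 and -0.16, adjusted p of 0.167 and 0.369), nor ACTB and TUBB at 3 days (0.07 and 0.12, adjusted p of 0.335 and 0.167). Exon bases of ALDOA are shared at 43.3% with AC093512.2. Under ERCC scaling the median of the 20 long-lived genes went from -0.12 to 0.11.

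The m6A machinery showed 5 of 20 genes higher, none lower and a median of 0.24. ALKBH5, an m6A demethylase, was at 74.7, 71.9, 80.1 and 73.4 CPM with DMSO and 121, 123, 131 and 125 with STM2457. The groups were well separated, and the rise of 0.74 ± 0.10 (adjusted p = 2.41e-05) was the same at both durations (0.74 and 0.74). The writer complex subunits ZC3H13 and WTAP rose by 0.40 ± 0.09 and 0.60 ± 0.17, and RBM15B by 0.78 ± 0.22. VIRMA, another subunit, rose by 0.46 ± 0.11 but lost its call without STM2457 3 days replicate 1 (0.38, adjusted p = 0.0681). ZC3H13 did not pass at 3 days (0.24, adjusted p = 0.159), VIRMA not at 6 days (0.34, adjusted p = 0.22), and WTAP and RBM15B at neither (adjusted p of 0.149 and 0.0545 at 3 days, 0.235 and 0.341 at 6 days). The list's median was between 0.14 and 0.28 when 1 library was left out, lowest without STM2457 6 days replicate 2. METTL3 itself was at 53.6, 47.5, 44.1 and 59.9 CPM with DMSO and at 51.0, 50.1, 59.3 and 53.7 with STM2457, overlapping ranges with a difference of 0.06 ± 0.14 (adjusted p = 0.89).

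Of 14 neurotrophic receptors tested, 4 rose and none fell, with a median of 0.28. RET, the GDNF family signalling receptor, was at 286 and 266 CPM with DMSO at 3 days and 65.0 and 91.8 at 6 days, against 355, 372, 202 and 199. At each duration STM2457 was higher, by 0.40 at 3 days and 1.35 at 6 days. Its co-receptors GFRA2 and GFRA1 rose by 0.76 ± 0.14 and 0.39 ± 0.11. GFRA1 lost its call without DMSO 6 days replicate 2 (0.29, adjusted p = 0.139), and the 3-day contrast called neither (adjusted p of 0.128 and 0.707). Of 34 axon guidance genes, 6 rose (SLIT3, NRP1, PLXNA2, EPHB2 and UNC5A by 0.43 to 0.59, and PLXNA4) and 2 fell (PLXNA1, PLXND1), with a median of 0.18, which was 0.06 without DMSO 3 days replicate 1. The list had 5 genes higher and 1 lower at 3 days and 4 higher and 4 lower at 6 days. NRP1, PLXNA2 and PLXND1 did not pass at 3 days (adjusted p of 0.121, 0.462 and 0.477), UNC5A not at 6 days (0.844) and EPHB2 at neither (0.15 and 0.149). Among 24 neuronal structure and synapse genes, the granule protein CHGA (0.31 ± 0.05) and the neurofilament genes NEFL (0.52 ± 0.09) and INA (0.31 ± 0.08) rose, and the adhesion protein CNTN1 (-0.37 ± 0.08) and the vesicle protein SYP (-0.46 ± 0.13) fell. INA, CNTN1 and SYP did not pass at 3 days (adjusted p of 0.437, 0.127 and 0.427). SOX11 was the sole called gene of 15 adrenergic transcription factors: it was at 161, 182, 151 and 143 CPM against 238, 232, 203 and 199.7 and rose by 0.45 ± 0.09 (adjusted p = 0.00167). MYCN was not called (-0.21 ± 0.08, adjusted p = 0.117).

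Cell cycle genes were mixed. MKI67, the proliferation antigen, with 70.1% of its coding bases in 1 exon, was at 795, 802, 577 and 561 CPM with DMSO and 1008, 1027, 1043 and 986 with STM2457, and rose by 0.59 ± 0.08 (adjusted p = 1.34e-05) without overlap. In the list of 24 G2 and mitosis genes it was the only one higher, and CDC20, the mitotic ubiquitin ligase activator, the only one lower. CDC20 changed by -0.72 ± 0.21 and lost its call without DMSO 3 days replicate 1 (-0.58), STM2457 3 days replicate 1 (-0.64) or STM2457 3 days replicate 2 (-0.56), with adjusted p of 0.0809, 0.0622 and 0.115. At 6 days it did not pass (-0.22, adjusted p = 0.786). Of 24 replication genes, FEN1 and the helicase subunits MCM3, MCM5 and MCM6 rose, the latter by 0.40 to 0.46. At 3 days MCM3, MCM5 and MCM6 did not pass (adjusted p of 0.615, 0.851 and 0.815), and at 6 days they rose.

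Several groups showed few or no calls. None of 31 genes of deadenylation, decapping and the exosome, none of 25 splicing factors and none of 19 interferon genes was called, with medians of -0.11, -0.02 and 0.28. Leaving out 1 library moved these medians to between -0.13 and -0.035, -0.07 and 0.01, and 0.06 and 0.40. The most abundant members of the decay and splicing lists were CNOT1 (-0.21 ± 0.07, adjusted p = 0.106) and HNRNPA1 (-0.17 ± 0.05, adjusted p = 0.0547). HNRNPA1 passed without DMSO 3 days replicate 1 or STM2457 6 days replicate 1 (adjusted p of 0.0396 and 0.0249). Nucleolar ribosome assembly genes were divided (2 of 25 higher, 3 lower, median -0.11, or -0.17 to -0.035 when 1 library was left out): NPM1, the abundant nucleolar chaperone, fell by 0.42 ± 0.05, and NCL, another abundant nucleolar protein, rose by 0.19 ± 0.05 (0.10 at 3 days, adjusted p = 0.244). The mesenchymal and Schwann cell list gave 1 higher and 1 lower gene of 16 tested, FN1 (0.57 ± 0.13, adjusted p of 0.385 at 3 days) and COL1A1 (-0.84 ± 0.24; -0.60 at 3 days, adjusted p = 0.402), which lost its call without DMSO 6 days replicate 1 or STM2457 6 days replicate 2 (adjusted p of 0.0826 and 0.132). Of 21 cholesterol and fatty acid genes, their regulator SREBF2 was called (-0.39 ± 0.08), and of 22 chaperone genes the endoplasmic reticulum isomerase PDIA4 (0.51 ± 0.09). SREBF2 and PDIA4 did not pass at 3 days (adjusted p of 0.0883 and 0.0972).

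Of 20 p53 target genes, RRM2B, a ribonucleotide reductase subunit, was called (-0.79 ± 0.18; -0.67 at 3 days, adjusted p = 0.13). In the list of 34 short-lived transcripts, SOX12, JUND, MCL1 and SOX11 rose and none fell, with a median of 0.28. That median ran from -0.01 without STM2457 3 days replicate 1 to 0.39 without DMSO 6 days replicate 2. At 6 days it was -0.09 in the fit with 4 groups and 0.06 from the 6-day libraries alone. SOX12 was at 41.8, 72.7, 75.4 and 85.5 CPM with DMSO and 153, 146, 129 and 111 with STM2457, a rise of 0.98 ± 0.15 (adjusted p = 0.000115), and JUND, an AP-1 factor coded in 1 exon, rose by 0.86 ± 0.18 (0.74 at 6 days, adjusted p = 0.0698). MCL1 passed at neither duration (adjusted p of 0.229 and 0.0604). Of 28 collagen, laminin and integrin genes, COL18A1 (-0.81 ± 0.16) and COL6A2 (-0.44 ± 0.12) fell. COL18A1, which shares 18.5% of its exon bases with SLC19A1, did not pass at 3 days (-0.24 ± 0.13, adjusted p = 0.397). COL6A2 did not pass at 3 days (-0.24, adjusted p = 0.478) and lost its call without DMSO 6 days replicate 2 or STM2457 6 days replicate 2 (-0.33 and -0.31; adjusted p of 0.155 and 0.158).

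**Figure D4:**
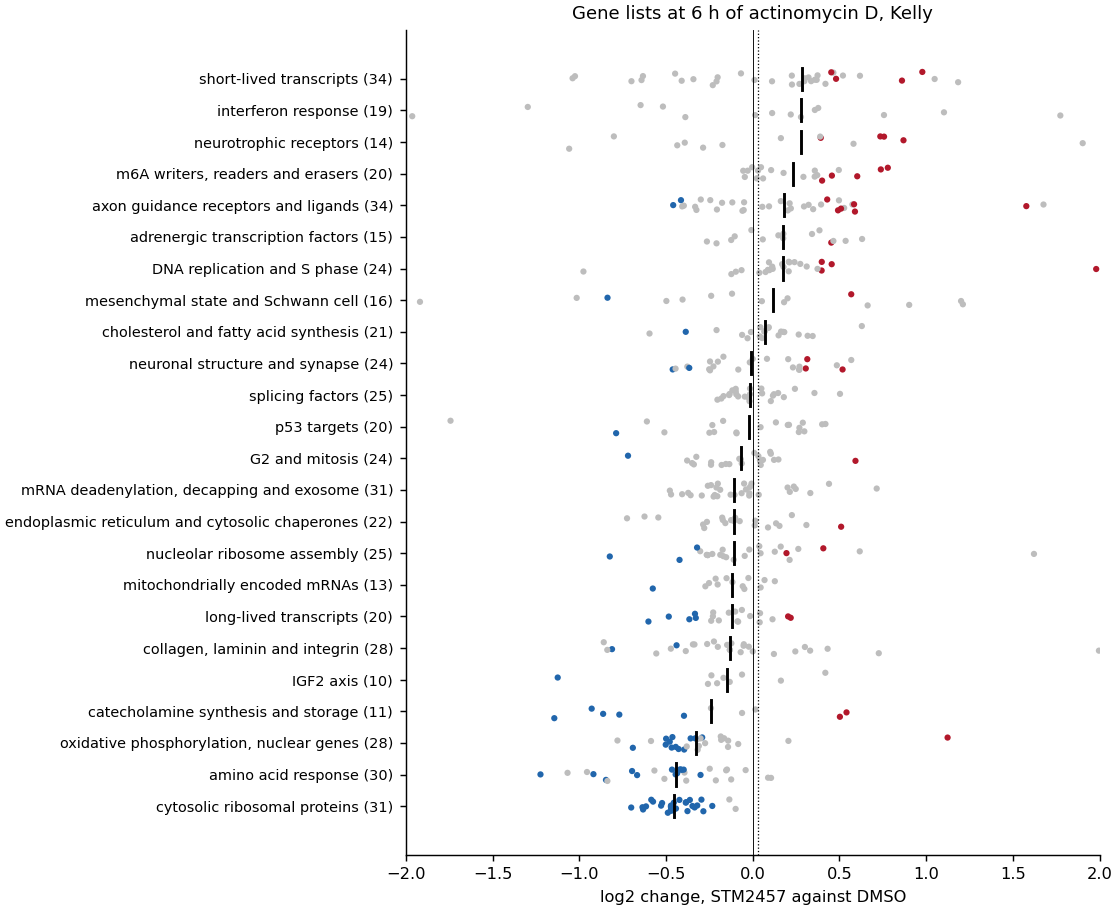
Log2 change at 6 h for the tested members of 24 gene lists. Each point is a gene, coloured where called higher or lower, black bars are list medians and the dotted line is the median of all genes; 11 members lie outside the axis limit of 2. The ribosomal protein list lies wholly below 0, and the decay and splicing lists hold no called gene.

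After TMM scaling, the effect of STM2457 was called different between durations in a small set of genes. With 2 libraries per group, this does not show that the effect was alike in the others. In the fit with 4 groups, 241 genes were higher (1.55%) and 434 lower (2.79%) at 3 days, 4.34% in all, and 512 higher (3.29%) and 464 lower (2.98%) at 6 days, 6.27% in all. The balance moved with the scaling. At 3 days it was 357 higher and 215 lower with library size alone, 469 and 175 with long-lived scaling and 169 and 681 with the length trend removed. At 6 days it was 634 and 378 with library size alone and 4018 and 95 with ERCC scaling. The counts moved when 1 library was left out: to 386 without DMSO 3 days replicate 1, 313 without STM2457 3 days replicate 1 and 397 without STM2457 3 days replicate 2 at 3 days, and to 627 without DMSO 6 days replicate 2 at 6 days. Called the same way at both durations were 94 higher and 155 lower genes, and 24 were called in opposite directions. The difference between durations was called for 241 genes (1.55%), 168 more positive (1.08%) and 73 more negative (0.469%) at 6 days, and for 422 without STM2457 6 days replicate 2. With ERCC scaling 2531 differences were more positive and 33 more negative, and with long-lived scaling 114 and 123. Of the 241, the effects had opposite signs in 181, and none of the 830 genes called over both durations did. Both counts follow largely from how the lists were picked. The test of the difference favours opposite signs, and opposite effects cancel in the pooled estimate.

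In the leading genes with a duration difference the DMSO libraries of 6 days stood apart from those of 3 days. CLSTN2, a synaptic calsyntenin, was at 452 and 509 CPM with DMSO at 3 days, 175 and 184 at 6 days, and 521 to 565 in all STM2457 libraries. The STM2457 libraries were alike, and the effects at 6 and 3 days differed by 1.44 ± 0.12 (adjusted p = 5.79e-11). HSP90AA1, a cytosolic chaperone, was at 3081 and 3213 CPM against 2164 and 2301 at 3 days and at 1754 and 1844 against 2183 and 2179 at 6 days, lower with STM2457 at 3 days and higher at 6 days. Of 24 replication genes, 1 was higher at 3 days and 14 at 6 days, and for 11 the difference itself was called. MCM3 changed by 0.10 ± 0.08 at 3 days and 0.70 ± 0.08 at 6 days. Of the 22 chaperone genes, 7 were lower at 3 days, and at 6 days 5 were higher and 1 lower.

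Mitochondrially encoded mRNAs moved the other way, with 3 of 13 higher and 1 lower at 3 days and 11 lower at 6 days. The difference was called for 7. MT-CYB, cytochrome b, was at 1123 and 1068 CPM with DMSO against 1608 and 1446 at 3 days and at 2699 and 2618 against 2057 and 2500.0 at 6 days. Its duration difference was not called with ERCC scaling. MT-ND1 of complex I was the one called over both durations, at 505, 482, 601 and 615 CPM with DMSO and 339, 337, 396 and 403 with STM2457 (-0.58 ± 0.07, adjusted p = 6.75e-06). It was not called under ERCC scaling. Of genes with a duration difference, 9.52% of those more positive and 7.81% of those more negative at 6 days have over 50% of coding bases in 1 exon. The share was 23.4% of all tested genes and 10.3% of those averaging 50 CPM or more, so these values lie near that of abundant genes.

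**Figure D5:**
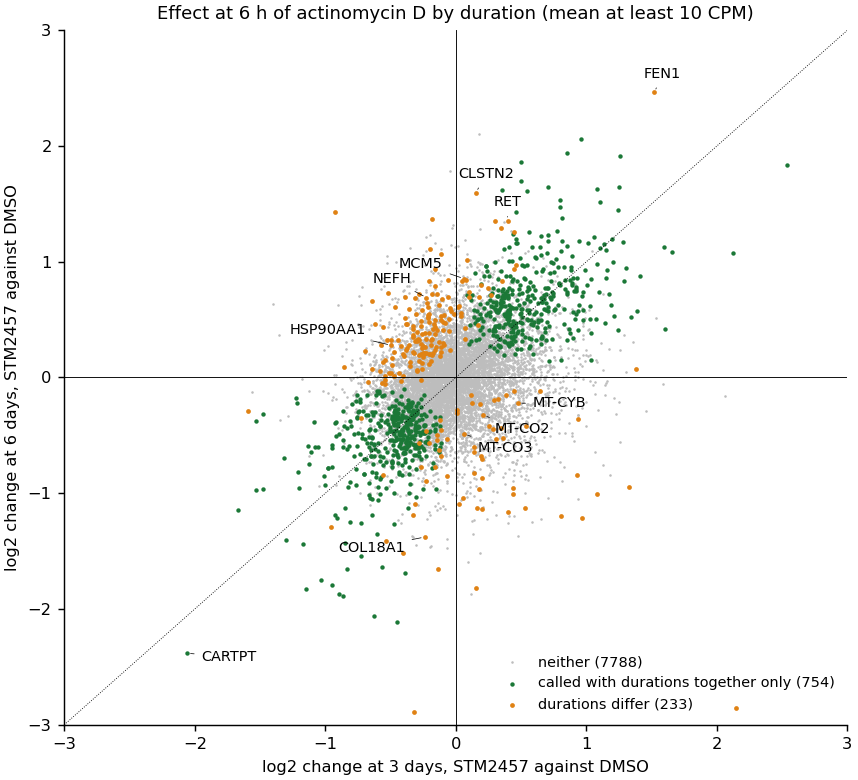
Log2 change with STM2457 at 6 h after 6 days against that after 3 days, for 8775 genes averaging 10 CPM or more. Colours mark 233 genes whose effects differ between durations and 754 called over both durations only. AQP1 lies outside the axes. The genes called over both durations lie mainly in the quadrants of equal sign, which the pooled test favours.

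At 0 h, before actinomycin D, the inhibitor's effect was tested in 8 other Kelly libraries, which are not part of the main comparison. There, 404 genes were higher (2.5%) and 349 lower (2.16%) of 16172 tested, 4.66% in all, and 855 and 191 with ERCC or 634 and 229 with long-lived scaling. Of the genes higher at 6 h, 159 were also higher at 0 h (39.5% of the 6-h list and 39.4% of the 0-h list). Of those lower at 6 h, 206 were lower at 0 h (48.2% and 59.0%). Called in opposite directions was 1 gene. Effects were smaller at 0 h, with medians of 0.27 against 0.58 for the higher and -0.25 against -0.48 for the lower genes, though the lists were chosen on the 6-h values.

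The difference of the effects, 6 h minus 0 h, was called for 84 genes (0.519%), 38 more positive (0.235%) and 46 more negative (0.284%) at 6 h. That balance became 63 and 14 with library size alone, 225 and 9 with ERCC scaling, 47 and 23 with long-lived scaling and 29 and 127 with the length trend removed. Among the 6-h libraries, the count rose to between 139 and 215 when DMSO 3 days replicate 2, STM2457 3 days replicate 2 or any of the 4 of 6 days was left out. Among the 403 higher genes it was called in 29 and among the 427 lower genes in 33, with the larger effect at 6 h in all of them. That direction was largely fixed in advance, because both lists were chosen on the same 6-h libraries. Of the 28 such higher genes with a reference transcript, 22 (78.6%) have over 50% of their coding bases in 1 exon and 12 a single coding exon. Of the 32 such lower genes, 3 (9.38%) have over 50% in 1 exon. Without the choice by 6-h calls, 27 of 35 genes with a more positive effect at 6 h (77.1%) have over 50% in 1 exon. The same holds for 8 of 45 genes with a more negative effect (17.8%). FEN1 changed by 0.76 ± 0.09 at 0 h, and its effect was larger by 1.23 ± 0.12 at 6 h (adjusted p = 4.73e-10). MAGEF1 changed by 0.24 ± 0.08 at 0 h (adjusted p = 0.0904) and by 1.11 ± 0.12 more at 6 h, and PRCC by 0.34 ± 0.08 and 0.88 ± 0.11 more. PLXNA4, RET and CLSTN2, by contrast, had changes at 0 h of 2.11, 0.94 and 0.92, and no called difference at 6 h (-0.52 ± 0.33, -0.07 ± 0.12 and -0.05 ± 0.08). ATF4 changed by -0.24 at 0 h, and its fall was larger by 0.60 ± 0.09 at 6 h. RPL5 changed by -0.40 at 0 h, with a difference of -0.31 ± 0.04. MYCN changed by 0.02 ± 0.03 at 0 h, and its difference of -0.23 ± 0.04 was called (adjusted p = 0.00316).

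In NGP after 6 h of actinomycin D, from libraries that the Kelly comparison does not use, 650 genes were higher (3.99%) and 751 lower (4.61%) of 16283 tested, 8.6% in all, and 3833 and 115 with ERCC or 1402 and 317 with long-lived scaling. Of the Kelly genes, 210 of the 403 higher ones were higher in NGP (52.1%, and 32.4% of the NGP list) and 234 of the 427 lower ones were lower (54.8% and 31.3%). Called in opposite directions were 1 and 5. The difference between lines was called for 213 genes (1.31%), 100 more positive (0.614%) and 113 more negative (0.694%) in Kelly, and for 338, 347 or 408 without DMSO 3 days replicate 2, STM2457 6 days replicate 1 or STM2457 6 days replicate 2 of Kelly. With ERCC scaling 65 were more positive and 194 more negative, and with library size alone 137 and 102. FEN1, MAGEF1, PRCC and SOX12 rose in NGP by 1.45, 1.30, 1.35 and 1.19, and for the last 3 no difference between lines was called. IGF2 fell by 0.93 ± 0.04 there and RPL5 by 0.50 ± 0.03. DDC was among the genes that differed: -0.14 ± 0.06 in NGP (adjusted p = 0.2), and -0.80 ± 0.09 for Kelly minus NGP (adjusted p = 7.26e-09). MT-ND1 rose by 0.21 ± 0.04 in NGP. EPAS1, a hypoxia factor gene, fell by 1.25 ± 0.10 in NGP and was at 836, 831, 689 and 633 CPM with STM2457 in Kelly against 997, 995, 587 and 623 with DMSO, which gave no call (-0.06 ± 0.08, adjusted p = 0.745).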

How the data were processed

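Libraries came from bead-selected poly(A) RNA by a SMART cDNA kit, per the labels' protocols. The authors deposited raw counts of fragments per gene, 1 table per library. Per the file headers they were made by featureCounts from paired reads over exons by gene name, with GRCh38 and no strand option, so overlapping genes on opposite strands cannot be separated. Tools named in the submitters' processing notes are HISAT2 2.1.0, Subread 1.5.3, Trimmomatic 0.36 and FastQC 0.11.5.

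ERCC spike-ins were set aside, genes were filtered by group with edgeR's filterByExpr (minimum count 10, total 15), scaled by TMM and tested with edgeR 4.0.16 (R 4.3.3) by the quasi-likelihood test with Benjamini-Hochberg adjustment over all tested genes and a threshold of 0.05. The pooled fit used the 8 Kelly libraries with duration as covariate; durations were compared in a fit with 4 groups, and 0 h and NGP in fits to 16 libraries each. The text gives CPM per library and log2 changes ± SE. Exon layout came from MANE Select transcripts of GENCODE 44, matched by gene symbol, and 98.5% of them lay within the files' gene spans.

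Genes were named by rule: the 12 largest called increases and decreases with a mean of at least 10 CPM and no overlap of libraries, METTL3 and MYCN, up to 3 called members of smallest adjusted p per list (or the most abundant member), and the 3 genes of smallest adjusted p in each direction for each difference. The other called list members, GPI, LDHA, ACTB, TUBB, INA, SYP, NRP1 and RPL41 among them, and the genes of the exon drawing and sequences were chosen after their values were seen. The comparison, the gene lists and the exon-layout summaries were chosen with earlier results of these data known. Alternatives were RLE, library-size, ERCC and long-lived scaling, no filter, DESeq2 1.42.0, limma 3.58.1 voom, a length trend, a replicate block, no duration covariate, each duration alone, all 24 Kelly libraries and leaving out each library. The scripts were tested on simulated data. Some genes are not reported here. Each library pair differed by more than sampling noise.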

Additional observations from a re-analysis of the deposited data

Results flagged for a closer look

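These results were picked out because the effect of STM2457 differed between 2 groups by edgeR's quasi-likelihood test of the difference itself, with Benjamini-Hochberg adjustment over all tested genes, and because they are the 3 genes of smallest adjusted p in each direction with a mean of at least 10 CPM. Values are differences of log2 changes.

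Between 6 and 3 days, the effect was more positive at 6 days for CLSTN2 (1.44), NEFH, the heavy neurofilament subunit (0.92), and HSP90AA1 (0.77). It was more negative for the mitochondrially encoded MT-CYB (-0.70), MT-CO3 (-0.55) and MT-CO2 (-0.54). In these 6 genes the 2 DMSO libraries of 6 days lay apart from those of 3 days: NEFH was at 1211 and 1259 CPM with DMSO at 3 days and at 558 and 584 at 6 days, and at 831 to 1067 in the STM2457 libraries. MT-CO3 was at 2047 and 2028 CPM and then 3649 and 3438, with STM2457 libraries at 2093 to 2758. With ERCC scaling the differences of MT-CYB, MT-CO3 and MT-CO2 were not called. The part of the DMSO libraries' difference in these results was not tested.

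Between 6 h and 0 h of actinomycin D, the effect was more positive at 6 h for FEN1 (1.23), MAGEF1 (1.11) and PRCC (0.88), and more negative for the linker histone gene H1-5 (-0.71), MT-ND1 (-0.37) and RPL5 (-0.31), of which RPL5 was not called with ERCC scaling. H1-5 was at 10.2 to 20.1 CPM in all 8 libraries at 6 h with no call there (-0.23 ± 0.24, adjusted p = 0.705), and rose by 0.47 ± 0.05 with STM2457 at 0 h.

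Between Kelly and NGP at 6 h, the effect was more positive in Kelly for RYR2, an intracellular calcium channel (1.53), FAM49A (1.46) and EPAS1 (1.18), and more negative for MT-ND1 (-0.79), DBH (-0.71) and GNAS, a G protein alpha subunit (-0.45). FAM49A rose by 0.67 ± 0.12 in Kelly and fell by 0.79 ± 0.08 in NGP. RYR2 was at 1.41 to 8.70 CPM in Kelly, where it was not called (1.30 ± 0.44, adjusted p = 0.0881). Of the 86 named genes, 19, 22 and 25 had a called difference by duration, by hour and by line.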

How the results depend on the processing

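The higher genes numbered 403 and the lower 427. Higher genes came to 630 with library size alone, 713 with ERCC scaling, 706 with scaling to long-lived transcripts, 150 without the duration covariate, 1151 with all 24 Kelly libraries in the fit and 215 from 3 days alone. Lower genes came to 48 with ERCC scaling, 278 with long-lived scaling, 203 without the covariate and 1015 with all 24 libraries. Calls at 3 days were 1412 by DESeq2. At 6 days they were 4113 with ERCC scaling and 1797 by DESeq2, and for the duration difference 2564 and 765. The 6 h minus 0 h difference gave 234 with ERCC scaling, 132 without a filter, 283 by DESeq2, 45 by limma-voom and 156 with the length trend removed. Kelly minus NGP gave 327 without a filter, 485 by DESeq2 and 140 by limma-voom. Except as stated, causes were not tested.

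Leaving out 1 library gave 391 to 468 higher and 394 to 473 lower genes, 313 to 936 calls at 3 days, 627 to 1103 at 6 days, 177 to 422 for the duration difference, 81 to 215 for 6 h minus 0 h and 218 to 408 for Kelly minus NGP. The libraries that moved a count by over 1.5 times are named in the report. No called named gene changed sign in any of these, while the uncalled METTL3, HSP90AA1 and MT-CO2 did, and 21 calls were lost and 15 gained.

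With the replicate number as a block the counts were 425 and 414, with 139 for 6 h minus 0 h and 317 for Kelly minus NGP. No named gene changed its call. Same-numbered libraries did not deviate together (correlations of -0.017 at 3 days and 0.003 at 6 days). These values do not settle whether the number pairs them.

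The changes that reversed were HSP90AA1 (0.29 from 6 days alone), NEFH (-0.22 from 3 days alone) and MT-CO2 (0.21 from 3 days alone). ERCC scaling lost 23 named calls. With 2 libraries per group, a missed threshold does not show that a gene of few CPM was unchanged.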
